A study of Drosophila melanogaster with 6 samples.

Results

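The proteasome is the protease complex that degrades proteins tagged with ubiquitin. It was examined here at the transcript level in samples labelled as *Drosophila melanogaster* heads, from flies aged 40 days, set against flies aged 10 days. Its genes were found by current symbol: every gene named Prosalpha, Prosbeta, Rpn or Rpt with a number, with a probe set assigned to that gene alone. This gave 40 genes of 11804 with a single-gene probe set, 26 main subunits and 14 paralogues whose symbol carries a T or R suffix. Each of the 40 genes had 1 probe set. Of 48 genes with such names in RefSeq, 8 are not analysed here: *Prosalpha1*, *Prosbeta1*, *Rpn9*, *Rpn10*, *Rpt1* and *Rpt6* among the main subunits, and *Prosalpha1R* and *Rpt6R* among the paralogues.

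The 6 samples were pools of 75 to 100 heads, per the labels, with 3 pools of flies aged 40 days and 3 of flies aged 10 days. All were labelled as female, of the Canton S strain, with no transgene or treatment named, and as independent biological replicates. Total RNA was amplified and hybridised to Affymetrix expression arrays, and the expression values are given as log2. Array medians lay between 7.51 and 7.53, and precision is limited by the small number of arrays. Samples with the same replicate number were treated as pairs.

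The core particle of the proteasome is a barrel of stacked rings, with Prosalpha subunits in the outer rings and Prosbeta subunits, some of them proteolytic, in the inner rings. The regulatory particle caps the barrel: Rpt subunits are ATPases that unfold the substrate, and Rpn subunits bind ubiquitin chains, remove them or hold the particle together. In *Drosophila*, many subunits have a duplicated gene, and most of the duplicates are known for expression in the testis.

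Markers of the testis, of the accessory gland and of the gut were bright in these samples, against the label of female heads. A mean log2 value of at least 4 was reached by 8846 of all 11804 genes, whose median level was 8.02. Of 34 testis germline genes with a probe set, 30 had a mean log2 value of at least 4, and the list's median level was 9.13. The spermatid genes *ocn*, *Mst87F* and *Mst84Dc* had mean log2 levels of 14.80 ± 0.09, 14.77 ± 0.11 and 14.35 ± 0.11 (SD, n = 6 samples). The 4 genes under 4 were *aly*, *bam*, *comr* and *can*, which act in early male germ cells or in the spermatocyte programme; other genes with such roles were above it, such as *vis* at 8.55, *sa* at 7.86, *bgcn* at 7.36 and *topi* at 6.60. All 17 accessory gland genes were above 4, led by *Acp53Ea* at 15.45, *Acp98AB* at 15.40 and *Mst57Da* at 15.38, whereas 19 of 22 ovary and egg genes lay under 4; the other 3 were *grk* at 9.43, *CycB3* at 8.19 and *del* at 6.65. Photoreceptor genes, which mark the eye, were present, with *Arr2* at 14.97, *Arr1* at 14.14 and *Galphaq* at 11.43 and all 10 genes of the list above 4. Of the 12 neuronal genes 9 were above 4, near the share of all genes, with *Snap25* at 11.27, *Gad1* at 11.01 and *ChAT* at 9.04. Of the 18 gut enzyme genes 16 were above 4, led by *alphaTry* at 15.21, *Jon65Aiv* at 14.96 and *betaTry* at 14.94. The label is kept below as a name for the samples, and the source of these transcripts was not tested.

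Of the 14 paralogues 13 had a mean log2 level above 4, as did all 26 main subunits and 8846 of all 11804 genes. The paralogues had mean levels between 6.66 and 10.16 apart from *Prosbeta4R2* at 2.14, with a median of 8.53 over all 14. The main subunits had mean levels between 9.98 and 13.08, with a median of 11.86. Over all 15131 probe sets the 75th percentile of the mean level was 9.78, and 1 of the 14 paralogues and 26 of the 26 main subunits lay above it. The signal of a probe set depends on its probes as well as on the amount of transcript, so no gene's level was tested against another's.

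**Figure D1:**
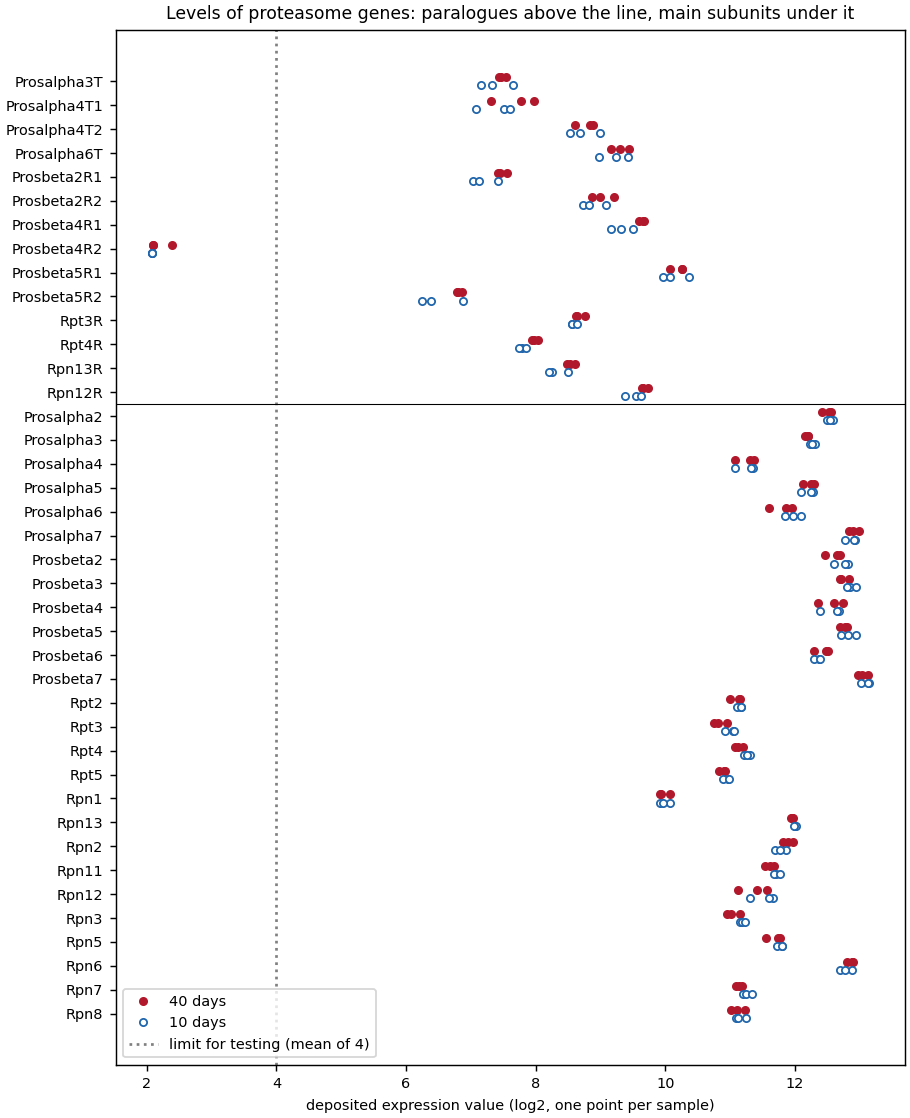
Deposited log2 expression value of each proteasome gene, with paralogues in the upper part and main subunits in the lower part. Filled points are the 3 samples of 40 days and open points the 3 samples of 10 days, and the dotted line marks the mean of 4 used as the limit for testing. *Prosbeta4R2* lies near 2, and every other gene lies to the right of the line.

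Among the paralogues of the outer ring, *Prosalpha6T* and *Prosalpha4T2* had mean log2 levels of 9.26 and 8.76 over the 6 samples, and *Prosalpha4T1* and *Prosalpha3T* had 7.54 and 7.43. *Prosalpha6T* and *Prosalpha3T* encode alpha subunits of the proteasome of maturing sperm cells. Among those of the inner ring, *Prosbeta5R1* had the highest signal at 10.16, and *Prosbeta4R1*, *Prosbeta2R2*, *Prosbeta2R1* and *Prosbeta5R2* had 9.48, 8.95, 7.33 and 6.66. The genes they resemble, *Prosbeta5* and *Prosbeta2*, encode the subunits with chymotrypsin-like and trypsin-like activity. In the regulatory particle, the paralogues of the ATPases, *Rpt3R* and *Rpt4R*, had 8.63 and 7.89, and *Rpn12R* and *Rpn13R* had 9.60 and 8.43. The probe set of *Rpn12R* carries the suffix s, which on this array type marks probes that can be shared by transcripts of several genes, so a part of its signal may come from another transcript.

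*Prosbeta4R1* and *Prosbeta4R2*, both named after *Prosbeta4*, stood far apart in signal. *Prosbeta4R1* had 9.67, 9.59 and 9.66 in the samples of 40 days, against 9.16, 9.32 and 9.50 in those of 10 days (log2, samples 1 to 3). *Prosbeta4R2* had 2.10, 2.39 and 2.10 at 40 days and 2.08 in all 3 samples of 10 days, near the lowest value of the table, 2.06. It was not tested, and its values do not show a level above background. In the RefSeq gene order the pair is separated by 1 gene, the odorant receptor gene *Or23a*.

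The main subunits of each structural class covered a range of signal, given here as a description. The 6 Prosbeta genes lay between 12.39 (*Prosbeta6*) and 13.08 (*Prosbeta7*), and the 6 Prosalpha genes between 11.25 (*Prosalpha4*) and 12.89 (*Prosalpha7*), as means over the 6 samples. The 4 ATPase genes lay between 10.92 (*Rpt5*) and 11.20 (*Rpt4*). In the lid of the regulatory particle, which holds the deubiquitinase *Rpn11*, the 7 genes lay between 11.12 (*Rpn3*) and 12.82 (*Rpn6*). The other subunits of the base were *Rpn1* at 9.98, the scaffold gene *Rpn2* at 11.83 and the ubiquitin receptor gene *Rpn13* at 11.98. The probe sets of *Prosbeta5*, *Prosbeta7*, *Rpn6* and *Rpn13* carry the same s suffix. A further probe set is assigned to *Prosalpha1* and *Prosalpha1R* together, and it had a mean level of 13.55 and an age difference of 0.09, which cannot be divided between the 2 genes.

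No proteasome gene passed the test between the ages. With limma and the replicate number as a block, 0 of the 13 paralogues tested and 0 of the 26 main subunits had a Benjamini-Hochberg adjusted p under 0.05, where 1.92% of the 10286 probe sets tested did, 0.622% higher and 1.3% lower at 40 days. The smallest adjusted p was 0.109 among the paralogues and 0.146 among the main subunits. Without the block the count was 0 in both groups as well, against 0.34% of probe sets, and the smallest adjusted p were 0.314 and 0.419. With the block, 5 paralogues had positive and 0 negative differences at an unadjusted p under 0.05, and 0 main subunits had positive and 6 negative ones. Over all probe sets 12.9% met this with a positive and 12.1% with a negative difference. Without the block, 3 paralogues had positive and 0 negative differences at this limit. The main subunits then had 0 of either sign, beside 13.1% of all probe sets. In the fit with the block, the 95% confidence intervals of single genes lay between -0.17 and 0.70 among the paralogues. Among the main subunits they lay between -0.32 and 0.23 (log2, lowest and highest bound). These intervals hold for 1 gene at a time and depend on the block. The standard error of *Rpn12* was 0.05 with the block and 0.15 without it, and that of *Rpt4R* was 0.07 in both fits.

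The signs of the differences, none of which passed, parted the paralogues from the main subunits. All 13 tested paralogues had a mean difference above 0 (40 days minus 10 days), as did 5 of the 26 main subunits, where 51.8% of all probe sets did. The median difference was 0.16 over the paralogues and -0.06 over the main subunits, beside 0.01 over all 10286 probe sets. The paralogues ran from 0.04 to 0.32 on the log2 scale and the main subunits from -0.18 to 0.11, which as ratios are 1.03 to 1.24 and 0.885 to 1.08. On simulated data with the noise of all tested probe sets, 8 of 100 genes changed by 0.25 log2 were called, and 43 of 100 changed by 0.5. No change smaller than 0.25 was simulated. The SD over the 3 pairs had a median of 0.05 over the main subunits and 0.14 over the paralogues, beside 0.13 over all probe sets. The simulated rates therefore do not describe the main subunits. The counts of signs describe the genes of the 2 groups, and no test was made over them.

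**Figure D2:**
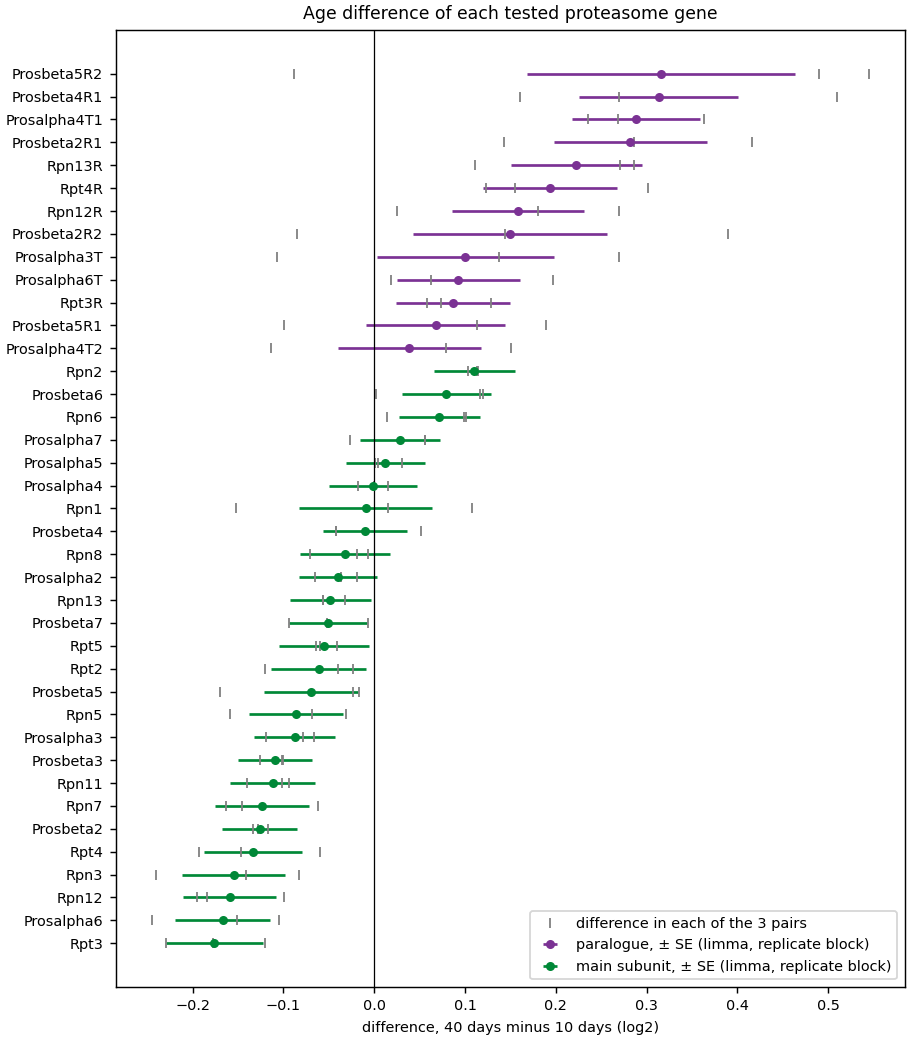
Difference between 40 and 10 days (log2, 40 minus 10) for the 39 tested proteasome genes, with the standard error of the limma fit as a bar and the difference of each of the 3 pairs as a tick. The 13 paralogues all have means above 0 and 21 of the 26 main subunits have means below 0, and no gene passed the test.

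Of the paralogues, *Prosalpha4T1*, named after an outer ring subunit, had the smallest p. Its log2 levels were 7.32, 7.78 and 7.97 in the samples of 40 days and 7.08, 7.51 and 7.61 in those of 10 days. The ages overlapped, but within each of the 3 pairs the older sample was the higher one. The difference was 0.29 ± 0.07 (log2 ± SE, limma adjusted p = 0.109 with the block and 0.589 without it). *Prosbeta4R1*, whose values are given above, had all 3 samples of 40 days above all 3 of 10 days and a difference of 0.31 ± 0.09 (limma adjusted p = 0.129). *Prosbeta2R1*, a paralogue of the trypsin-like subunit, had 7.45, 7.42 and 7.56 at 40 days and 7.04, 7.13 and 7.41 at 10 days. The ages did not overlap, by a margin of under 0.01 log2 between the closest samples, and the difference was 0.28 ± 0.08 (limma adjusted p = 0.143).

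Paralogues of the regulatory particle had similar values. *Rpt4R* had 7.95, 7.98 and 8.04 at 40 days and 7.80, 7.86 and 7.74 at 10 days, without overlap, a difference of 0.19 ± 0.07 (limma adjusted p = 0.198). *Rpn13R* had 8.53, 8.49 and 8.61 at 40 days and 8.26, 8.20 and 8.50 at 10 days, where sample 3 of 10 days reached into the range of the older ones. Its difference was 0.22 ± 0.07 (limma adjusted p = 0.160). *Rpn12R* had 9.65, 9.73 and 9.65 at 40 days and 9.38, 9.55 and 9.62 at 10 days, again without overlap, and differed by 0.16 ± 0.07 (limma adjusted p = 0.256). *Rpt3R* differed by 0.09 ± 0.06. Of the 13 paralogues tested, 4 had no overlap between the ages with 40 days above and 0 with 40 days below, beside 11.4% and 8.42% of all probe sets.

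In 5 other paralogues pair 3 had the opposite sign to pairs 1 and 2. *Prosbeta5R2*, a paralogue of the chymotrypsin-like subunit, had the largest mean difference, 0.32 ± 0.15 (limma adjusted p = 0.263), with 6.80, 6.87 and 6.79 at 40 days and 6.25, 6.38 and 6.88 at 10 days. Sample 3 of 10 days was the highest of all 6, and the pair differences were 0.54, 0.49 and -0.09. Pair 3 was below 0 also in *Prosbeta2R2* (-0.09), *Prosalpha3T* (-0.11), *Prosalpha4T2* (-0.11) and *Prosbeta5R1* (-0.10), whose mean differences were 0.15, 0.10, 0.04 and 0.07. Leaving out 1 sample moved these means: without either sample of number 1 or of number 2 they were as low as 0.03, 0.02, -0.02 and 0.0068, and without either sample of number 3 they were 0.27, 0.20, 0.11 and 0.15. That of *Prosbeta5R2* ran from 0.20 to 0.52 with 1 sample left out. *Prosalpha6T* was above 0 in each pair, with a mean difference of 0.09 and pair 3 at 0.02. In all, 8 of the 13 paralogues were above 0 in all 3 pairs and 0 were below 0 in all 3, beside 26.1% and 23.2% of all probe sets.

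Among the main subunits the most negative differences belonged to *Rpt3*, *Prosalpha6* and *Rpn12*. *Rpt3*, an ATPase of the base, had 10.81, 10.75 and 10.95 at 40 days and 11.04, 10.92 and 11.07 at 10 days, where the highest sample of 40 days lay above the lowest of 10 days. It differed by -0.18 ± 0.05 (limma adjusted p = 0.146). *Prosalpha6*, a subunit of the outer ring, had 11.86, 11.61 and 11.95 at 40 days and 11.97, 11.85 and 12.10 at 10 days, and differed by -0.17 ± 0.05 (limma adjusted p = 0.152). The ages overlapped although each pair had the older sample lower. *Rpn12*, a lid subunit, had 11.57, 11.12 and 11.42 at 40 days and 11.67, 11.31 and 11.60 at 10 days, with a difference of -0.16 ± 0.05 (limma adjusted p = 0.157) and the older sample lower in each pair.

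The most positive differences among the main subunits were those of *Rpn2*, *Prosbeta6* and *Rpn6*. *Rpn2* had 11.97, 11.81 and 11.89 at 40 days and 11.86, 11.70 and 11.77 at 10 days. Its pair differences of 0.10, 0.11 and 0.11 were nearly equal, and the mean was 0.11 ± 0.05 (limma adjusted p = 0.218). *Prosbeta6*, an inner ring subunit, differed by 0.08 ± 0.05 and *Rpn6*, which links the lid to the core particle, by 0.07 ± 0.04 (limma adjusted p = 0.372 and 0.375). *Prosalpha7* and *Prosalpha5* made up the other positive ones, at 0.03 and 0.01.

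By structural class, the median differences were -0.11 over the 7 lid subunits, -0.10 over the 4 ATPases, -0.06 over the 6 inner ring subunits, -0.02 over the 6 outer ring subunits and -0.01 over the 3 other base subunits. All 4 ATPases and 6 of the 7 lid subunits were below 0 in all 3 pairs. So were 4 of the 6 inner ring subunits, 3 of the 6 outer ring subunits and 1 of the 3 other base subunits, *Rpn13*. In all 18 of the 26 main subunits were below 0 in all 3 pairs and 4 above it. *Rpt4*, *Prosalpha3*, *Rpn13*, *Rpn7* and *Rpn11* had all 3 samples of 40 days below all 3 of 10 days, by differences of -0.13, -0.09, -0.05, -0.12 and -0.11. These are 5 of the 26 main subunits, beside the 8.42% of probe sets given above, and 0 had the ages apart the other way. *Prosalpha4* differed by -0.0011 ± 0.05 (limma adjusted p = 0.993), and *Rpn1* by -0.01 ± 0.07 with pairs of opposite sign.

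Each paralogue can be set against its own main subunit within a pair of samples, which compares 2 changes and not 2 levels. The age difference of the paralogue minus that of its main subunit was above 0 on average for all 13 tested paralogues. These means lay between 0.04 and 0.41, with a median of 0.28. Their sign follows from the signs given above, since every main subunit in these contrasts had a mean difference below 0. The contrast was above 0 in all 3 pairs for 11 of the 13 and in 2 pairs for *Prosalpha3T* and *Prosalpha4T2*. *Prosbeta2R1* against *Prosbeta2* gave the largest value, 0.41 ± 0.14 (SD over 3 pairs), made of a paralogue difference of 0.28 and a main subunit difference of -0.13. *Rpt4R* against *Rpt4* gave 0.33 ± 0.05, with 0.35, 0.27 and 0.36 in the 3 pairs. *Rpt3R* against *Rpt3* gave 0.26 ± 0.04 although *Rpt3R* itself differed by 0.09, since *Rpt3* had the most negative difference of the main subunits. *Prosalpha4T1* and *Prosalpha4T2* share *Prosalpha4* as main subunit and gave 0.29 ± 0.08 and 0.04 ± 0.12. Paralogues with the same main subunit share its values, so the 13 contrasts are not independent. With 3 pairs an exact sign-flip test cannot reach a p under 0.05, and none was run.

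**Figure D3:**
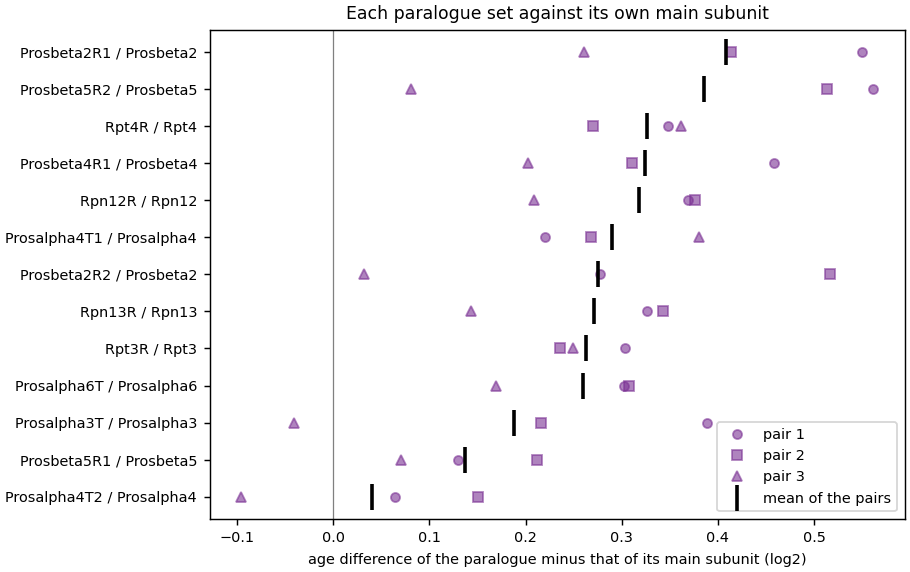
Age difference of each tested paralogue minus the age difference of its main subunit (log2), with a symbol for each pair of samples and a bar for the mean of the 3 pairs. All 13 means lie above 0, and pair 3 lies below 0 for *Prosalpha3T* and *Prosalpha4T2*.

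The testis germline list had differences mostly above 0, and 29 of its 30 tested genes did not pass the test. Of these 30 genes, 27 had a mean difference above 0 and 3 below, from -1.18 (*dj*) to 0.55 (*vis*), and the median was 0.15, beside 0.16 over the paralogues. The 2 lists were not tested against each other. By pair the medians were 0.20, 0.18 and 0.06 over the testis list and 0.24, 0.19 and 0.03 over the paralogues, lowest in pair 3 in both, and -0.05, -0.07 and -0.05 over the main subunits. The summed signal of the testis list lay between 17.70 and 17.74 in the samples of 40 days and between 17.47 and 17.65 in those of 10 days (log2 of the sum), without overlap. That of the 14 paralogues lay between 12.49 and 12.63 at 40 days and between 12.27 and 12.60 at 10 days, with overlap. For 14 of the 30 genes all samples of 40 days were above all of 10 days, and for 1, *dj*, below them, beside 11.4% and 8.42% of all probe sets. The sperm protein gene *dj* alone of the 30 passed the test, beside 1.92% of all probe sets, and it fell by 1.18 on the log2 scale (limma adjusted p = 0.0123). The accessory gland list, a male list without germline genes, gave medians of -0.13, 0.31 and 0.03 in the 3 pairs. In bulk RNA a change in the number of cells of a type and a change in RNA per cell cannot be told apart. The part of testis RNA in the differences of the paralogues was not tested.

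**Figure D4:**
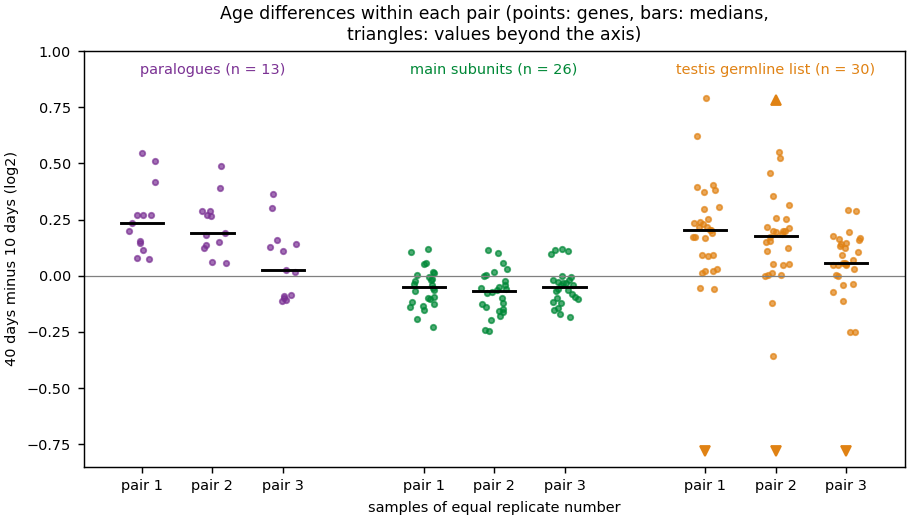
Differences between the samples of 40 and 10 days with the same replicate number (log2) for the paralogues, the main subunits and the testis germline list. Points are genes, bars are medians and triangles stand for values beyond the axis; the medians of the paralogues and of the testis list are above 0 in each pair and lowest in pair 3, and those of the main subunits lie between -0.07 and -0.05.

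The replicate number accounted for more of the spread than age in most main subunits. The share of a gene's sum of squares between the replicate numbers had a median of 64.6% over the main subunits and 42.3% over the paralogues, beside 49.2% over all probe sets, and the share between the ages had medians of 26.1%, 39.8% and 22.0%. The number share exceeded the age share in 19 of the 26 main subunits and 7 of the 13 paralogues, though 3 numbers have more degrees of freedom than 2 ages. In *Prosalpha4*, *Prosalpha5* and *Prosbeta4* the numbers made up 99.7%, 98.6% and 97.6%. *Prosbeta4*, for example, had 12.74, 12.35 and 12.61 at 40 days and 12.69, 12.39 and 12.65 at 10 days, with sample 2 lowest at both ages. In *Rpt4R* the numbers made up 2.95% and age 83.5%.

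The main subunits and the paralogues followed the replicate numbers in different ways. For 22 of the 26 main subunits the samples of number 2 were the lowest of their age at both ages, as they were for 19.3% of all probe sets and for 2 of the 13 paralogues. All 6 Prosalpha, all 6 Prosbeta and all 4 Rpt genes measured were among the 22; the exceptions were *Rpn1*, *Rpn3*, *Rpn7* and *Rpn13*. For 8 of the 13 paralogues the samples of number 3 were the highest of their age at both ages, as they were for 14.2% of all probe sets. Sample 3 of 10 days was the highest of its age in 12 of the 13 paralogues, 25 of the 30 testis genes and 3223 of the 10286 probe sets. The median paralogue lay 0.21 above its mean for 10 days there. Sample 3 of 40 days was the highest of its age in 9 of the 13, 11 of the 30 and 3176 of the 10286. Number 3 was the highest at both ages in 36.7% of the testis genes. The accessory gland list had number 2 lowest at both ages in 15 of its 17 genes, and the gut list in 12 of its 16 tested genes. The count was 6 of 30 in the testis list and 0 in the neuron and photoreceptor lists. What set the numbers apart was not tested.

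**Figure D5:**
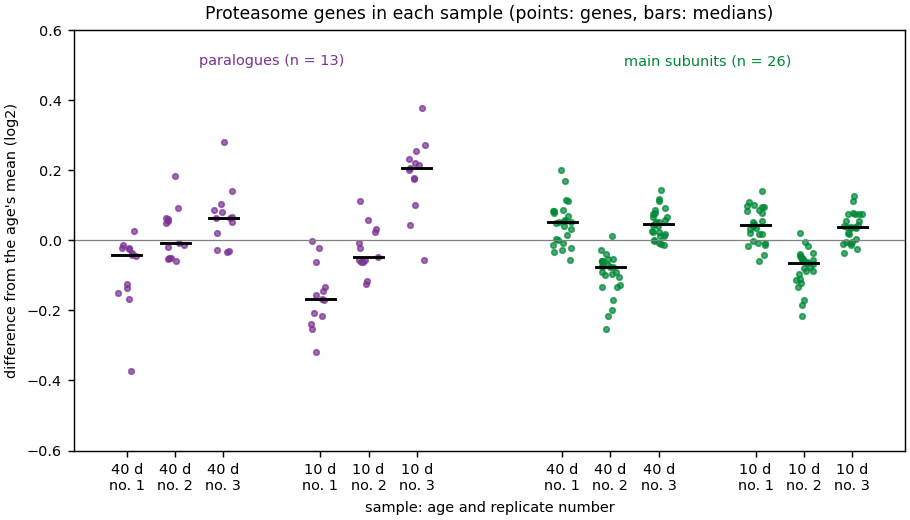
Each tested proteasome gene in each sample, as its log2 difference from the mean of the 3 samples of that age, with paralogues on the left and main subunits on the right. Points are genes and bars medians; the main subunits lie lowest in the samples of number 2 at both ages, at medians of -0.08 at 40 days and -0.06 at 10 days, and the paralogues lie highest in those of number 3.

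Without both samples of number 2, still no proteasome gene passed. Then 12 of the 13 paralogues had differences above 0 and 20 of the 26 main subunits below 0, with medians of 0.15 and -0.05 and smallest adjusted p of 0.294 and 0.402 (limma). *Prosalpha4T2* was the paralogue that turned, to -0.02.

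Genes that work with the proteasome had differences on both sides of 0. The list held 33 genes of ubiquitin supply, substrate delivery, deubiquitination, proteasome assembly and ubiquitin ligases, all tested. None passed with or without the block, where 1.92% and 0.34% of all probe sets did. Differences were above 0 in 18 and below 0 in 15, beside 51.8% and 48.1% of all probe sets, and the median was 0.01. With the block there were 3 above and 2 below at an unadjusted p under 0.05, beside 12.9% and 12.1% of all probe sets. Without it there were 1 above and 1 below, beside 13.1% of all probe sets for both signs together. *fzy*, an activator of the anaphase promoting ligase, had 7.29, 7.13 and 7.40 at 40 days and 6.59, 6.74 and 7.02 at 10 days, without overlap, a difference of 0.49 ± 0.10 (limma adjusted p = 0.0791). *Npl4*, which helps the unfoldase TER94 to deliver substrates, had 13.11, 13.16 and 13.15 at 40 days and 13.36, 13.44 and 13.29 at 10 days, also without overlap, and differed by -0.22 ± 0.05 (limma adjusted p = 0.0925). *Ubc6*, a ubiquitin conjugating enzyme, differed by -0.23 ± 0.06, and *Ubi-p63E*, a polyubiquitin gene, by 0.12 ± 0.04 (limma adjusted p = 0.117 and 0.152).

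Regulators and partners that bind the particle itself also had differences of both signs. *Sem1*, a small lid subunit outside the naming rule, gave -0.03, the assembly factor gene *Pomp* 0.06, the regulator gene *PI31* -0.02, the activator gene *REG* -0.14 and *cnc*, whose product includes a transcription factor of proteasome genes, -0.03. Of the deubiquitinases that bind the regulatory particle, *Usp14* gave -0.07 and *Uch-L5* 0.16. *Uch-L5R*, a paralogue of *Uch-L5* with the same kind of suffix, had a mean level of 9.17 and gave 0.26 ± 0.08, above 0 in all 3 pairs (limma adjusted p = 0.156). These genes were chosen for their place in the pathway after their values were seen.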

How the data were processed

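The deposited values are log2 expression values of 15131 probe sets on 6 arrays. The authors used GCRMA, per the submitters' processing notes, a method of background correction, normalization and probe set summary; its version is not given in the sources used here. No further normalization was applied. Of the probe sets, 13333 had 1 gene, 390 several and 1408 none in the array annotation given, and 13250 had a current symbol through the Entrez ID (RefSeq, Release 6 plus ISO1 MT). Sequences were not used here.

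Probe sets with a mean of at least 4 over the 6 arrays, 10286 in all, were compared between 40 and 10 days with limma 3.58.1 in R 4.3.3 (lmFit, eBayes with a trend, two-sided, replicate number as a block), and p was adjusted by Benjamini-Hochberg over all of them with a threshold of 0.05. The block follows the rule that defined the gene group. The labels do not say that numbers pair samples. After age means were removed, equal numbers correlated at 0.707, 0.772 and 0.353, above the 0.1 required, and the pairs of the rule were kept. These correlations do not show that the samples were collected as pairs. On simulated data of this design 84 of 100 changes of 1 log2 and 93 of 100 of 2 log2 were called, with 7 false calls. Tables and plots were made with Python 3.11.15, pandas 2.3.3 and matplotlib 3.10.9.

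Named were all paralogues, the 3 most positive and 3 most negative main subunits, the brightest and dimmest of each structural class, the 4 pathway genes with the smallest p and the 3 brightest genes of each marker list. Others were named after their values were seen. Members and lists were chosen with earlier results of these data known.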

Additional observations from a re-analysis of the deposited data

How the results depend on the processing

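No proteasome gene and no gene of the pathway list passed the test in any of the 17 alternatives. The smallest adjusted p over the members ran from 0.0935 to 0.314 over the alternatives that kept all samples and from 0.1216 to 0.3035 with 1 sample left out. With the block, leaving out 1 sample removes what its partner adds. All 13 paralogues kept a difference above 0 except *Prosalpha4T2* without either or both samples of number 2 (-0.017, and 0.0185 and 0.1147 without 1 of the others). *Prosalpha4* turned to 0.011 after quantile normalization, 0.0001 with array weights and 0.0072 without either sample of number 3 (-0.0091 at the lowest with 1 sample left out), and *Rpn1* to 0.0616 without either sample of number 1 (-0.0684 at the lowest). Of the 26 main subunits, 7 were above 0 after quantile normalization and without either sample of number 3, beside 5 in the main fit. The median of the main subunits was -0.0462 after quantile normalization, and between -0.0724 and -0.0501 with 1 sample left out. The count of all probe sets called was 35 without the replicate block, 0 without a filter (2385 at an unadjusted p under 0.05), 119 without a trend, 395 with robust eBayes, 118 without both samples of number 2, and 7 to 119 with 1 sample left out. Of the 85 marker genes tested in the main fit 2 were called, beside 1.92% of all probe sets. These were *dj* and the gut gene *Jon99Fi* (difference 1.65, limma adjusted p = 0.0446). The count was 1 without the replicate block, without a trend or with probe sets averaged by gene, and 0 without a filter. It was 4 after quantile normalization, 4 without number 2, and 0 to 4 with 1 sample left out. The causes were not tested. Signal near background limits *Prosbeta4R2*.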
